A study of Mus musculus with 15 samples.

Results

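Cd36, Fabp4, Fabp5, Gpihbp1, Cav1 and Cav2 are genes through which capillaries take up fatty acids. They were picked by symbol for that role, with no threshold on a measured value but with earlier results of these data known. All 6 were found among the 10222 gene symbols of the deposited RPKM table, where they account for 13 of 12698 transcripts. RPKM, a read count scaled to transcript length and to library size, was summed over the transcripts of each symbol. Cd36 was also one of the markers by which the study showed its endothelial cells, so its direction is not independent evidence here.

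RNA-seq was performed on 5 populations sorted ex vivo by flow cytometry, with 3 libraries of each from independent experiments and 15 libraries in all. Every mouse was an Il33-citrine reporter on the C57BL/6 background, described as heterozygous, so the endothelial and epithelial cells carried the reporter allele too. The white adipose tissue (WAT) populations were CD31+ endothelial cells, sorted as Lin-CD45-EpCAM-CD31+, and Il33-citrine+ and Il33-citrine- multipotent stromal cells (Il33+ and Il33- WAT-MSC), sorted as CD31-CD24-PDGFRα+CD34+Sca1+podoplanin+ and labelled mesenteric. The lung populations were Il33+ MSC and EpCAM+ epithelial cells. The labels name no treatment, age or sex, and the fat depot of the endothelial cells is not given. No CD31 gate separates capillaries from arteries, veins or lymphatics, so "endothelial" below means all CD31+ cells of WAT, and lung endothelium was not analysed here, so cell type and tissue cannot be told apart between WAT endothelium and the lung populations. The number of alignments ranged from 42711843 to 60773158 per library.

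Capillaries of fat, heart and muscle feed on circulating triglyceride. Lipoprotein lipase made by the tissue cells is carried to the capillary lumen and anchored there by GPIHBP1, and the fatty acids it releases are taken up by endothelial CD36, carried through the cytosol by the fatty acid binding proteins FABP4 and FABP5, and passed on to the adipocyte. Caveolae, the flask-shaped membrane pits that caveolin 1 and caveolin 2 help to build, are dense in the same capillaries and are a site where CD36 resides at the membrane.

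The populations carried the markers of their sort. Pecam1 (CD31), a gating marker, was at 145, 145.8 and 198.4 RPKM in the endothelial libraries and between 0.71 and 19.1 in the other 12, and Cdh5, the endothelial cadherin, was at 144.4 to 191.3 against 0.14 to 33.26. Markers of other cell types were also measured in the endothelial libraries. Their summed level of 10 stromal markers was 2100 to 4330 RPKM, against 6510 to 8500 in Il33+ WAT-MSC, with Pdgfra at 24.42, 28.14 and 35.73. Pericyte markers Rgs5 and Cspg4 were at 140.7 to 215.1 and 1.19 to 3.14, and lymphatic markers Prox1 and Lyve1 at 4.8 to 23.03 and 45.55 to 95.77. The mesothelial genes Msln and Upk3b were at 8.23 to 12.11 and 17.18 to 64.22. The 8 macrophage markers found summed to 18 to 245 RPKM, with Cd68 at 0.53, 28.26 and 8.49. Epithelial Epcam and Cdh1 did not exceed 0.16 RPKM there. The 8 epithelial markers summed to 71.8 to 119 RPKM, with Scgb1a1, the club cell secretory protein, at 61.38 to 104.5. That level was not particular to endothelium, as Scgb1a1 was at 71.23 to 134.2 in Il33+ and 56.07 to 96.22 in Il33- WAT-MSC. The source of Scgb1a1 in the WAT libraries was not tested. In bulk libraries, fewer cells of a type and less RNA per cell cannot be told apart.

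All 6 genes had their highest mean in WAT endothelium. All but Gpihbp1, 5 of them, were higher in every endothelial library than in every library of each of the other 4 populations. The shares of all genes for which these held against all 4 at once are not given here, and those for each population singly follow below. Fabp4 and Cav1 were among the most abundant genes of these cells, at rank 45 and 51 of 10222 by mean RPKM, followed by Cd36 at 194, Gpihbp1 at 921, Cav2 at 1251 and Fabp5 at 1475. Below the endothelium the genes parted. Cd36, Fabp5 and Cav2 were next highest in lung epithelium and low in all stromal cells, whereas Fabp4 and Cav1 were lowest by mean in lung epithelium.

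**Figure D1:**
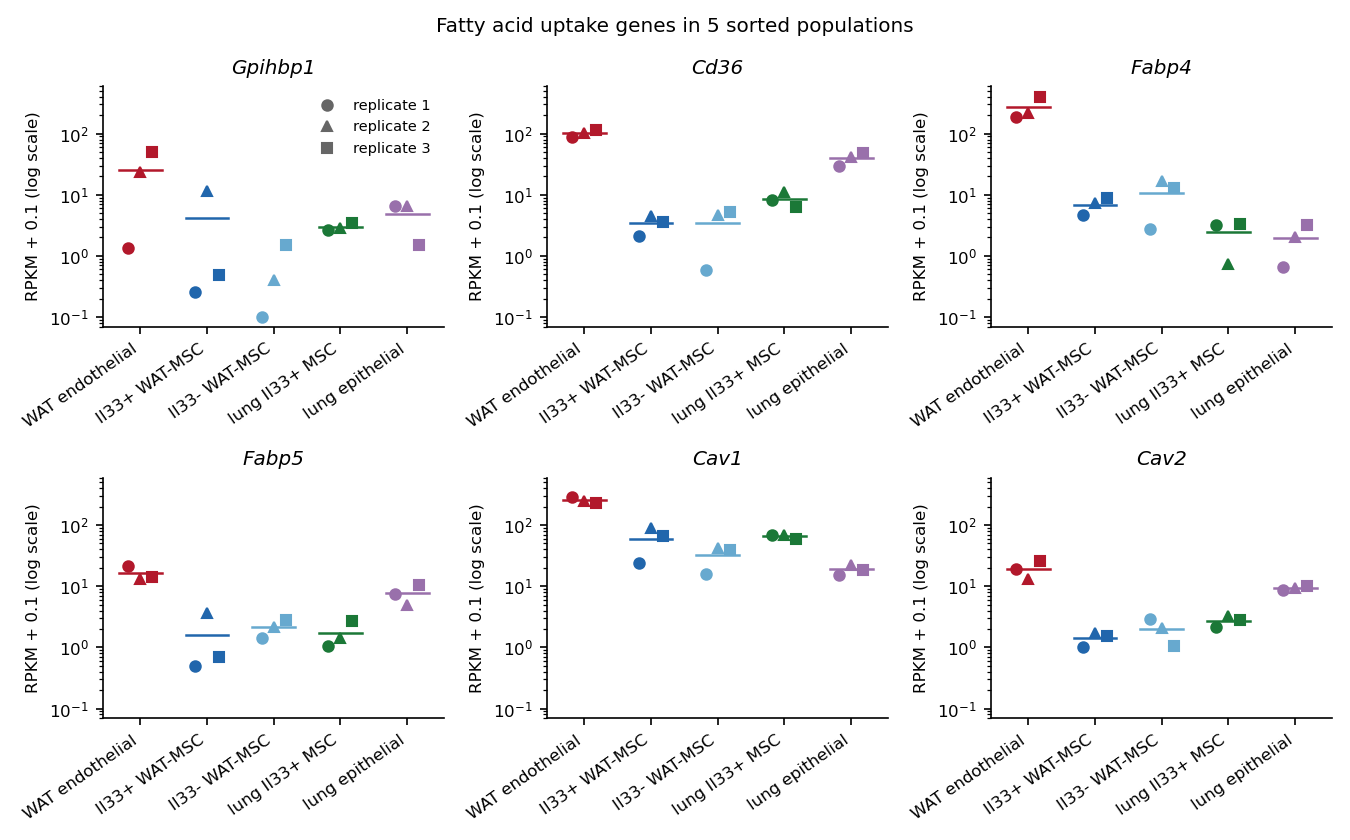
RPKM of each gene in each of the 15 libraries, on a log axis after adding 0.1, by population. Symbols mark the replicate and horizontal bars the mean of 3 libraries (none is drawn for Gpihbp1 in Il33- WAT-MSC, where 1 library was listed at 0). Apart from Gpihbp1, the 3 endothelial points lie above all others in each panel.

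Against Il33+ WAT-MSC, 5 of the 6 genes were higher in endothelium at an adjusted p below 0.05 (limma, Benjamini-Hochberg over 8665 genes), where 3.34% of all genes tested were higher. Against Il33- WAT-MSC the count was also 5 of 6, with 4.1% of all genes higher, and against lung Il33+ MSC 5 of 6, again with 4.1% higher. Against lung epithelium 3 of 6 passed, Cd36, Fabp4 and Cav1, where 14.9% of all genes were higher in endothelium. None was lower in any of the 4 comparisons, where 0.565%, 1.6%, 3% and 12.8% of all genes were. The median log2 fold change of the 6 was 3.02, 3.16, 2.57 and 1.41 in these comparisons, against -0.18, -0.17, -0.14 and 0.08 over all genes tested. The 4 comparisons share the same 3 endothelial libraries and are not independent of each other. Non-overlapping libraries were seen for 5 of 6 in each comparison, where 10.2%, 10.5%, 11.8% and 23.2% of all genes had every endothelial library above. Within each of the 2 sequencing lanes, all 24 endothelial differences of the 6 genes were above 0. The smallest was 0.01, for Gpihbp1 against lung epithelium in lane 1. Lane 2 held only replicate 3 of the endothelium. The share of all genes above 0 in both lanes is not given here.

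The count against Il33+ WAT-MSC rested in part on single libraries. It fell from 5 to 3 without endothelial replicate 2, without Il33+ WAT-MSC replicate 1 or without its replicate 3, when Fabp5 (adjusted p = 0.0542, 0.07 and 0.0676) and Cav1 (adjusted p = 0.0974, 0.0513 and 0.0676) no longer passed. Cav1 was also lost without the filter on low genes (adjusted p = 0.0856). Cd36, Fabp4 and Cav2 passed in that comparison under each setting tried.

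**Figure D2:**
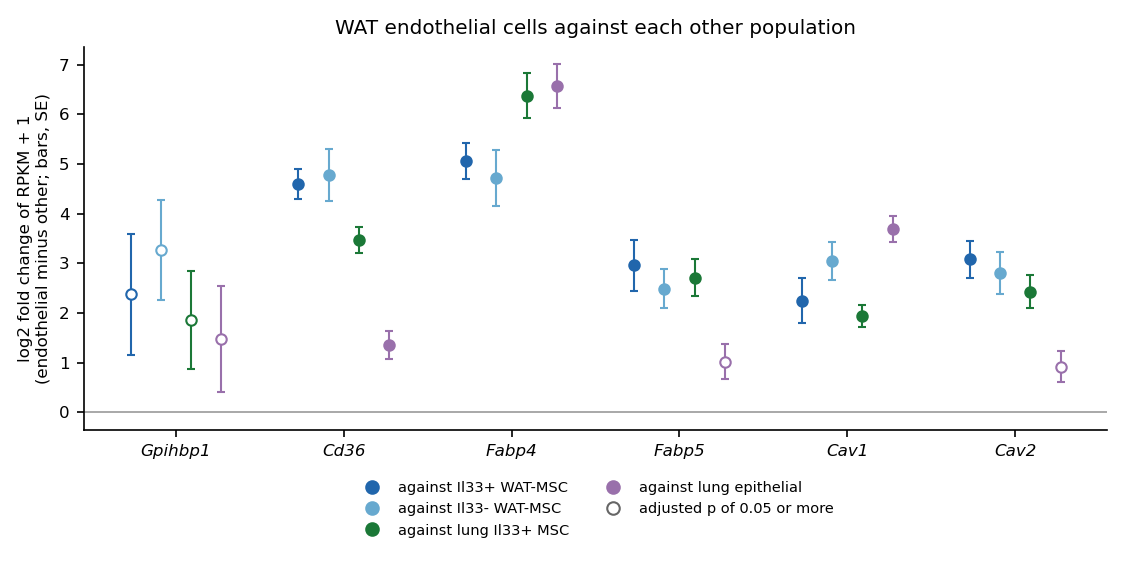
Log2 fold change (log2 of RPKM + 1) of each gene in WAT endothelial cells minus each other population, with bars for the SE of the limma fit on 6 libraries. Filled points passed an adjusted p of 0.05. Fabp4 lies between 4.72 and 6.57 and is highest except against Il33- WAT-MSC, where Cd36 is at 4.78, and the open points are the 4 comparisons of Gpihbp1 and, against lung epithelium, Fabp5 and Cav2.

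Gpihbp1, the anchor of lipoprotein lipase on the capillary surface, lies at chr15:75596628-75599481 (GRCm38, plus strand) and has 1 listed transcript. It was the least even of the 6. Its endothelial libraries held 1.24, 23.45 and 50.49 RPKM, replicate 1 being far below the others. Il33+ WAT-MSC were at 0.16, 11.51 and 0.39, Il33- WAT-MSC at 0, 0.31 and 1.41, lung Il33+ MSC at 2.57, 2.81 and 3.3, and lung epithelium at 6.35, 6.52 and 1.39. The ranges of the endothelium and each other population overlapped.

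Its log2 fold change in endothelium was 2.38 ± 1.22 (SE) against Il33+ WAT-MSC (adjusted p = 0.403, limma), 3.27 ± 1.00 against Il33- WAT-MSC (adjusted p = 0.112), 1.86 ± 0.99 against lung Il33+ MSC (adjusted p = 0.378) and 1.47 ± 1.07 against lung epithelium (adjusted p = 0.37), so no comparison passed in the 2-population fits. Without endothelial replicate 1, the last 3 passed, at 4.60 (adjusted p = 0.00102), 3.19 (adjusted p = 0.000972) and 2.80 (adjusted p = 0.00673), and the comparison with Il33- WAT-MSC also passed on all libraries in a fit blocked on replicate number (adjusted p = 0.0193), with the lane as a covariate (adjusted p = 0.0476), with all 15 libraries in one fit (adjusted p = 0.0376) and after quantile normalization (adjusted p = 0.0276). In endothelial replicate 1 the 12 endothelial markers had a median of 117% of their endothelial mean, while Kdr, the VEGF receptor, was at 11.91 RPKM against 23.68 and 25.28 in the other 2. That library's scaling factor by the median of gene ratios was 0.7289, against 1.061 and 1.298. Angptl4 (2.5 against 24.29 and 31.59) and Slc27a1 (0.06 against 4.16 and 3.16) were also low there, and Ehd4 (85.54 against 42.93 and 49.15) was high. Correlations between endothelial replicates ran from 0.773 to 0.9175, the lowest minimum of the 5 populations. Replicate 2 of Il33+ WAT-MSC, with Gpihbp1 at 11.51, also held Kdr at 7.55 and Cldn5 at 4.59 RPKM. Its 2 sister libraries held at most 1.45 and 0.14 (Kdr and Cldn5 were named after their values were seen). Not all of the 12 markers were highest in this stromal library. Pecam1, at 1.73 against 2.78 and 2.51, Eng, at 9.19 against 14.4 and 15.92, and Egfl7 were lowest there. Erg lay between its levels in the sister libraries, and the rest were highest there. The part of endothelial cells in this Gpihbp1 value was not tested.

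Cd36, the scavenger receptor that takes up long-chain fatty acids, spans chr5:17781690-17888801 (minus strand) and has 5 listed transcripts. The endothelial libraries held 88.83, 101.7 and 112.85 RPKM. Il33+ WAT-MSC were at 2.03, 4.43 and 3.45 and Il33- WAT-MSC at 0.48, 4.59 and 5.1. Lung Il33+ MSC held 8.16, 10.81 and 6.11 and lung epithelium 29.1, 41.87 and 47.42. The populations formed 4 separate steps, as endothelium, lung epithelium, lung stroma and WAT stroma did not overlap, and only the WAT-MSC populations overlapped with each other.

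The endothelial mean of 101 ± 12.02 RPKM (SD, n = 3) was 30.6 times that of Il33+ WAT-MSC, 29.8 times that of Il33- WAT-MSC, 12.1 times that of lung Il33+ MSC and 2.56 times that of lung epithelium. On the log2 scale the differences were 4.60 ± 0.31 (SE, adjusted p = 0.00017), 4.78 ± 0.52 (adjusted p = 0.00107), 3.47 ± 0.27 (adjusted p = 0.000523) and 1.36 ± 0.28 (adjusted p = 0.00765). Lung epithelium in turn was 2.11 ± 0.27 above lung Il33+ MSC (adjusted p = 0.000198). The step from lung to WAT stroma did not pass, with a log2 difference of -1.13 ± 0.31 for Il33+ WAT-MSC minus lung Il33+ MSC (adjusted p = 0.0643).

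The shares of the Cd36 transcripts were set side by side for endothelium and lung epithelium. The transcript with the highest mean, NM_001159556, made up 46.1% to 52.4% of Cd36 RPKM in the endothelial libraries and 53.9% to 59.1% in the epithelial ones. NM_001159557 made up 22.3% to 24% and 26.4% to 27.8%. NM_007643 made up 10.3% to 13.7% in endothelium and 5.29% to 7% in epithelium, and NM_001159555 9.87% to 12.8% and 5.26% to 6.88%. The ranges of these 4 transcripts did not overlap between the populations. Shares within a gene depend on each other, and NM_007643 and NM_001159555 correspond to the same GENCODE transcript, so these are not 4 separate observations. The difference in shares was not tested, and how often ranges of shares are apart over all genes is not given here. How reads shared by these transcripts were divided is not given in the sources used here.

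Fabp4, the cytosolic carrier known from adipocytes and capillary endothelium, lies at chr3:10204088-10208576 (minus strand) with 1 listed transcript. Its endothelial levels were 187.02, 216.78 and 397.29 RPKM, replicate 3 being the highest. WAT-MSC were at 4.5, 7.13 and 8.64 when Il33+ and 2.64, 16.71 and 12.84 when Il33-. Lung Il33+ MSC held 3.1, 0.63 and 3.21, and lung epithelium 0.57, 1.94 and 3.14. The lowest endothelial library was above the highest of all others, and every Il33+ WAT-MSC library lay above every lung library, while Il33- WAT-MSC overlapped both.

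Fabp4 gave the largest fold changes of the 6 in 3 of the 4 endothelial comparisons. The endothelial mean of 267 ± 114 RPKM (SD, n = 3) was 39.5 times that of Il33+ WAT-MSC, 24.9 times that of Il33- WAT-MSC, 115 times that of lung Il33+ MSC and 142 times that of lung epithelium. The log2 differences were 5.07 ± 0.36 (SE, adjusted p = 0.000209), 4.72 ± 0.57 (adjusted p = 0.00165), 6.38 ± 0.45 (adjusted p = 0.000455) and 6.57 ± 0.44 (adjusted p = 4.37e-05). Adipocytes make both Fabp4 and Cd36. Of 9 adipocyte markers, 2 were in the table, Cfd and Lipe, and the others, Adipoq and Plin1 among them, were not analysed here. Cfd was at 2.26, 7.42 and 5.55 RPKM in the endothelial libraries and at or below 0.24 in all others, and Lipe at 1.62, 7.92 and 8.69. The part of adipocyte RNA in the Fabp4 and Cd36 values was not tested.

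Fabp5, the epidermal-type carrier that accompanies Fabp4 in capillary endothelium, lies at chr3:10012548-10016607 (plus strand), 187480 bases from Fabp4, with 2 listed transcripts. It was at 21.21, 13.04 and 14.02 RPKM in endothelium. Stromal levels were low, at 0.4, 3.5 and 0.59 in Il33+ WAT-MSC, 1.32, 2.08 and 2.73 in Il33- WAT-MSC and 0.97, 1.32 and 2.64 in lung Il33+ MSC. Lung epithelium held 7.31, 4.87 and 10.4. These epithelial libraries lay between the endothelium and all stromal libraries without overlap.

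The log2 difference of Fabp5 in endothelium was 2.96 ± 0.51 (SE) against Il33+ WAT-MSC (adjusted p = 0.0142), 2.49 ± 0.39 against Il33- WAT-MSC (adjusted p = 0.00545) and 2.71 ± 0.37 against lung Il33+ MSC (adjusted p = 0.00391). Against lung epithelium it was 1.02 ± 0.36 and did not pass (adjusted p = 0.0706). Epithelium was 1.69 ± 0.35 above lung Il33+ MSC (adjusted p = 0.00346). Although neighbours on the chromosome and related in sequence, the carriers differed in balance. Fabp4 exceeded Fabp5 8.82 to 28.3 times in endothelium, whereas in lung epithelium its RPKM was 0.078 to 0.398 times that of Fabp5, ranges that did not overlap. With 3 libraries against 3, an exact permutation test cannot go below p = 0.1.

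Cav1 and Cav2 are neighbours on chromosome 6. Cav2 lies at chr6:17281185-17289115 and Cav1 at chr6:17306335-17341452, both on the plus strand with 17219 bases between them, and each has 2 listed transcripts. Caveolin 1 is required for caveolae, and caveolin 2 joins it in the coat. The start regions of the transcripts are shown because the pair was high together in endothelium and parted elsewhere. Each window runs from 250 bases before to 50 bases after a RefSeq start site on GRCm38.p6, plus strand, and capitals mark the motifs GGGCGG (or CCGCCC, its reverse complement) and CCAAT (or ATTGG).

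Cav2, NM_016900, chr6:17280935-17281234: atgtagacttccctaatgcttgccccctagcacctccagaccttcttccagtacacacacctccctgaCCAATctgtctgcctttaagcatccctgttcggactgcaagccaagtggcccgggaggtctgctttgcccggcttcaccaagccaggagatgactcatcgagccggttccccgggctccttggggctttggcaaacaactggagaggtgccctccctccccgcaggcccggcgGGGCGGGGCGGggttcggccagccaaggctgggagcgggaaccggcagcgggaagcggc

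Cav1, NM_007616, chr6:17306085-17306384: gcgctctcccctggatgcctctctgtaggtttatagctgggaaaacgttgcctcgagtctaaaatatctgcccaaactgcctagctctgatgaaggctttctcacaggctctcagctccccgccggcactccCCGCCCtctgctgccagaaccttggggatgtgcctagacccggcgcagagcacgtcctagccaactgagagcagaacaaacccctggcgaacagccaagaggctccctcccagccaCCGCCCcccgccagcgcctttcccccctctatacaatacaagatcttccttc

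Cav1, NM_001243064, chr6:17307390-17307689: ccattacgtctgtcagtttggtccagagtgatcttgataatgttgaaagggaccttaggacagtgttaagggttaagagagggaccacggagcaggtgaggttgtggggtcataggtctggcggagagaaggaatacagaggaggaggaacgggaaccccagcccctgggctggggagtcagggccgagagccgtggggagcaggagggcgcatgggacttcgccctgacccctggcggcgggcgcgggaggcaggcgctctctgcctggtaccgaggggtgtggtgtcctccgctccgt

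The Cav2 window held 2 matches of GGGCGG, which share a base, and 1 CCAAT, and the NM_007616 window of Cav1 held 2 matches of CCGCCC and no CCAAT. The window of the shorter Cav1 transcript held neither. Of all 32851 RefSeq windows of this length, 35.7% held a GGGCGG match and 37.4% a CCAAT match on either strand, so these letters are common. The GC content was 64.3% for Cav2 and 59.3% and 62.3% for Cav1, against a median of 52.7% over all windows. The ETS-type letters CCGGAA, or TTCCGG on the other strand (14.9% of all windows), were not in any of the 3 windows. RefSeq gives Cd36 a window at a start site where none of its 5 listed transcripts begins, and it is not shown. Fabp4, Fabp5 and Gpihbp1 are named only.

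Cav1 was at 284.59, 243.34 and 231.88 RPKM in endothelium. It was the one gene of the 6 that stayed abundant in stromal cells, at 23.78, 88.82 and 66.59 in Il33+ WAT-MSC, 15.71, 41.45 and 39.59 in Il33- WAT-MSC and 67.96, 67.98 and 59.97 in lung Il33+ MSC. Lung epithelium held 15.41, 22.49 and 18.54. Among these 12 libraries, replicate 1 of each WAT-MSC population lay near the epithelial range.

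The endothelial mean of Cav1, 253 ± 27.7 RPKM (SD, n = 3), was 4.24 times that of Il33+ WAT-MSC, 7.85 times that of Il33- WAT-MSC, 3.88 times that of lung Il33+ MSC and 13.5 times that of lung epithelium. The log2 differences were 2.25 ± 0.45 (SE, adjusted p = 0.0271), 3.05 ± 0.38 (adjusted p = 0.00195), 1.94 ± 0.22 (adjusted p = 0.00188) and 3.69 ± 0.26 (adjusted p = 5.17e-05). Cav1 was lower in lung epithelium than in lung Il33+ MSC, by a log2 difference of -1.76 ± 0.21 (adjusted p = 0.000122). NM_007616 supplied 63.3% to 84.7% of Cav1 RPKM in endothelium and 79.6% to 84.1% in epithelium.

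Cav2 was much less abundant and ordered otherwise. It was at 19.27, 12.82 and 25.3 RPKM in endothelium and at 8.7, 9.26 and 9.95 in lung epithelium. Il33+ WAT-MSC held 0.92, 1.63 and 1.41, Il33- WAT-MSC 2.79, 1.95 and 0.96, and lung Il33+ MSC 2.06, 3.18 and 2.7. The 9 stromal libraries thus all lay below the epithelium.

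Cav2 was higher in endothelium by 3.08 ± 0.38 (SE) against Il33+ WAT-MSC (adjusted p = 0.00272), 2.80 ± 0.42 against Il33- WAT-MSC (adjusted p = 0.0048) and 2.43 ± 0.34 against lung Il33+ MSC (adjusted p = 0.00445). Against lung epithelium the difference was 0.92 ± 0.32 (adjusted p = 0.0705), and it passed with the lane as a covariate at 1.05 (adjusted p = 0.0458), with all 15 libraries in one fit (adjusted p = 0.035) and without endothelial replicate 2 at 1.17 (adjusted p = 0.0479). Epithelium exceeded lung Il33+ MSC by 1.51 ± 0.24 (adjusted p = 0.000838), the opposite direction from Cav1. The RPKM of Cav1 was 1.77 to 2.43 times that of Cav2 in lung epithelium and 9.16 to 19.0 times in endothelium. The ratio was 21.4 to 33.0 in lung Il33+ MSC and 25.8 to 54.5 in Il33+ WAT-MSC. The lowest endothelial ratio was that of replicate 3. There the Cav2 transcript NM_001277756 held 11.48 RPKM, against 0.42 and 0.89 in endothelial replicates 1 and 2. The epithelial range overlapped with no other and the endothelial range with neither Il33+ stromal range, while Il33- WAT-MSC, at 5.63 to 41.2, overlapped with all but the epithelial one.

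**Figure D3:**
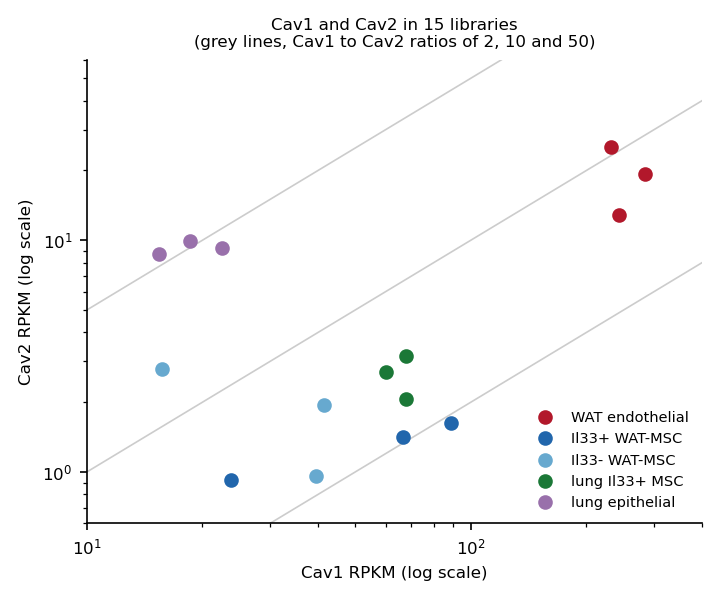
Cav1 against Cav2 RPKM in each of the 15 libraries, both on log axes, coloured by population, with grey lines for Cav1 to Cav2 ratios of 2, 10 and 50. The endothelial libraries are high for both genes, the lung epithelial libraries lie near the line for a ratio of 2, and the stromal libraries have low Cav2 over a range of Cav1.

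Lung epithelium against lung Il33+ MSC, a comparison within one tissue, called 4 of the 6 genes. Cd36, Fabp5 and Cav2 were higher in epithelium, where 18.5% of 9352 genes were, and Cav1 was lower, where 24.4% were. Fabp4 (-0.19 ± 0.47, SE, adjusted p = 0.785) and Gpihbp1 (0.39 ± 0.44, adjusted p = 0.509) did not pass, and Gpihbp1 passed without epithelial replicate 3, at 0.94 (adjusted p = 0.0313). Scgb1a1 took 57.7% to 62.9% of all summed RPKM in the epithelial libraries, which lowers every other value there. With libraries rescaled by the median of gene ratios, the median difference of all genes in this comparison moved by 0.28, from -0.13 to 0.15, and the same 4 genes were called in the same directions.

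The epithelial levels of Cd36, Fabp5 and Cav2 were set beside those of endothelial markers. Relative to its endothelial mean, Cd36 stood at 28.8%, 41.4% and 46.9% in the 3 epithelial libraries, Fabp5 at 45.4%, 30.3% and 64.6% and Cav2 at 45.5%, 48.4% and 52%. The 12 endothelial markers had medians of 8.21%, 10.9% and 8.37% there, and their highest members reached 21.2%, 23.5% and 22.3%. All 3 genes were above each of the 12 markers in each epithelial library. The scale is the mean of WAT endothelium, and levels of these genes relative to the markers in lung endothelium are not known here. Cav1 at 6.08% to 8.88% was near the marker median, and Fabp4 at 0.213% to 1.18% was below it. Gpihbp1 stood at 25.3%, 26% and 5.55%, above the highest marker in 2 libraries and below the median in the third. The macrophage list was also high in lung epithelium, with 8 of 11 markers in the table summing to 717 to 1360 RPKM, most of it Lyz2, which alveolar type 2 cells also make, at 658 to 1301, against 148 to 180 in lung Il33+ MSC. The alveolar macrophage markers Chil3 and Ear1 were similar in both lung populations, at 41.02 to 48.08 and 7.92 to 11.18 in epithelium and 33.7 to 56.93 and 7.64 to 15.1 in lung Il33+ MSC. Alveolar type 1 markers Ager and Hopx were at 5.18 to 16.06 and 10.13 to 15.35 in epithelium. The part of macrophages or of lung endothelial cells in the epithelial values was not tested.

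**Figure D4:**
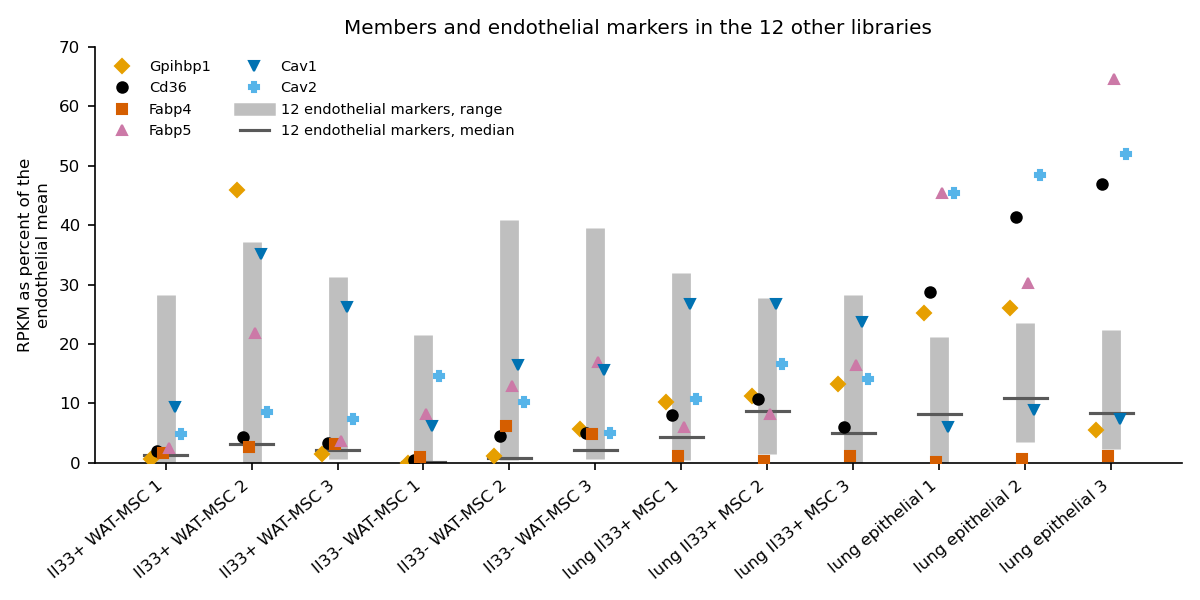
Level of each of the 6 genes in the 12 libraries outside the endothelium, as a percent of its endothelial mean, over grey bars for the range of 12 endothelial markers and a dark line for their median. Cd36, Fabp5 and Cav2 lie above the bar in all 3 lung epithelial libraries, and Cd36 and Fabp4 lie near the median in the Il33+ WAT-MSC.

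In the stromal cells most of the 6 genes were low. In Il33+ WAT-MSC, Cd36 stood at 2.01%, 4.38% and 3.41% of its endothelial mean and Fabp4 at 1.69%, 2.67% and 3.24%, while the 12 endothelial markers had medians of 1.35%, 3.2% and 2.15%. Cav1 was higher, at 9.39% to 35.1%, within the range of the markers, whose highest members reached 28.3% to 37.2%. In Il33- WAT-MSC, Cd36 stood at 0.475%, 4.54% and 5.04% and Fabp4 at 0.989%, 6.26% and 4.81%, each above the marker median of its library (0.156%, 0.866% and 2.14%). In lung Il33+ MSC, Cd36 at 8.07%, 10.7% and 6.04% was above the medians of 4.38%, 8.8% and 5.08%, and Fabp4 at 0.236% to 1.2% was below them. Fabp4 thus lay above the marker median in every WAT-MSC library but 1 and below it in every lung library. Whether the stromal Cd36 and Fabp4 came from endothelial cells in the sort was not tested.

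No difference by Il33 reporter state was detectable for these genes within WAT-MSC, in a comparison that called few genes of any kind. Of the 5 genes tested between Il33+ and Il33- WAT-MSC none passed (limma), where 1.57% of 8448 genes were called in either direction. An unadjusted p below 0.05 was found for 0 of the 5, and the share of all genes below it is not given here. The largest log2 difference was that of Cav1, at 0.80 ± 0.47 (SE, adjusted p = 0.587) in favour of Il33+ cells, and Cd36 differed by 0.18 ± 0.52 (adjusted p = 0.935). Gpihbp1 was below the level set for testing. The libraries of the populations overlapped for all 6 genes, where 8.84% of all genes lay above and 8.65% below in every Il33+ library. The SE of the 5 differences was 0.38 to 0.52, and of genes changed by 1 on the log2 scale in simulated data, 8.96% were recovered among the 8448 genes of this comparison.

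Between Il33+ MSC of WAT and lung, none of the 6 genes passed (limma), where 6% of 8554 genes were called in either direction. An unadjusted p below 0.05 was found for 3 of the 6, and the share of all genes below it is not given here. Fabp4 lay higher in all WAT libraries, with a log2 difference of 1.31 ± 0.40 (SE, adjusted p = 0.103), and Cd36 and Cav2 lower in all of them, by -1.13 ± 0.31 (adjusted p = 0.0643) and -0.65 ± 0.29 (adjusted p = 0.286). Every WAT library stood above in 12.1% and below in 11% of all genes. Without Il33+ WAT-MSC replicate 2, Cd36 (-1.32, adjusted p = 0.0331) and Gpihbp1 (-1.61, adjusted p = 0.0117) passed.

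The order of the populations by mean was endothelium, lung epithelium, lung Il33+ MSC, Il33- and then Il33+ WAT-MSC for both Cd36 and Cav2. For Fabp5 the stromal order was Il33- WAT-MSC, lung Il33+ MSC and Il33+ WAT-MSC, and these neighbours overlapped. Fabp4 ran from endothelium to Il33- WAT-MSC, Il33+ WAT-MSC, then the lung stromal and lung epithelial cells, and Cav1 from endothelium to lung Il33+ MSC, Il33+ WAT-MSC, Il33- WAT-MSC and lung epithelium. Past the first place, no neighbours of Fabp4 or Cav1 passed the limma threshold (adjusted p from 0.103 to 0.869), although the Fabp4 libraries of Il33+ WAT-MSC all lay above those of lung Il33+ MSC. For Gpihbp1 the one pair of neighbours that passed was lung Il33+ MSC over Il33- WAT-MSC, at 1.40 (adjusted p = 0.038), where 5.53% of all genes were higher. It was lost under 9 settings, with an adjusted p of up to 0.603, among them leaving out any library but Il33- WAT-MSC replicate 3 (adjusted p from 0.0638 to 0.14). Scaling by the median of gene ratios exchanged the places of the WAT-MSC populations for Cd36 and left the other orders as they were.

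Other genes of fatty acid handling were taken from lists of 5 kinds, without the 6 genes. Against Il33+ WAT-MSC, endothelium was higher for 1 of 8 tested genes of lipoprotein hydrolysis and uptake, 0 of 9 of fatty acid transport and activation, 3 of 8 of caveolae, 3 of 12 regulators of endothelial fatty acid handling and 1 of 9 of lipid droplets and lipolysis. None was lower. The median log2 fold changes were -0.63, -0.61, 0.63, 0.49 and -0.04, against -0.18 over all genes tested, of which 3.34% were higher and 0.565% lower.

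Lpl, the lipase that GPIHBP1 anchors, had its highest levels in WAT-MSC. It was at 105.7, 185.1 and 170.8 RPKM in Il33+ WAT-MSC, 164.5, 235.7 and 290.2 in Il33- WAT-MSC and 87.85, 39.89 and 84.55 in endothelium. Lung Il33+ MSC held 42.65, 32.16 and 59.58 and lung epithelium 12.3, 8.18 and 11.52. Every WAT-MSC library was above every endothelial one. The endothelial difference was -1.73 ± 0.38 (SE) against Il33- WAT-MSC (adjusted p = 0.0295, lost under 5 of 15 settings with up to 0.137) and -1.15 ± 0.37 against Il33+ WAT-MSC, which did not pass (adjusted p = 0.163). Lpl was higher in Il33+ WAT-MSC than in lung Il33+ MSC, by 1.76 ± 0.28 (adjusted p = 0.00379), and this passed under each setting tried. Angptl4, a secreted inhibitor of the lipase, was at 2.5, 24.29 and 31.59 in endothelium and 9.33, 21.27 and 25.49 in Il33+ WAT-MSC, a log2 difference of -0.36 ± 0.78 (adjusted p = 0.867).

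Scarb1, the scavenger receptor that binds HDL, was at 15.69, 21.74 and 18.86 RPKM in endothelium and 1.08, 6.86 and 0.46 in Il33+ WAT-MSC, a difference of 2.77 ± 0.59 (adjusted p = 0.0377). This one was lost under 7 of 15 settings, with adjusted p up to 0.202, whereas against Il33- WAT-MSC it held under all, at 3.93 ± 0.38 (adjusted p = 0.000759).

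Of the transporters and acyl-CoA synthetases tested, none was called higher in endothelium in any of the 4 endothelial comparisons. Slc27a1, a fatty acid transport protein, was at 0.06, 4.16 and 3.16 RPKM in endothelium and 1.6, 2.01 and 1.7 in Il33+ WAT-MSC (0.04 ± 0.61, adjusted p = 0.983). Slc27a4 was at 0.01, 1.17 and 1.42 against 2.11, 5.65 and 1.16 (-1.02 ± 0.55, adjusted p = 0.426), and Slc27a3 was not analysed here. Acsl1, which activates fatty acids, was at 0.65, 1.75 and 2.66 in endothelium and 11.88 to 18.15 in lung epithelium, with a log2 difference of -2.66 ± 0.40 for endothelium minus epithelium (adjusted p = 0.00171). Of the 9 genes tested of this list, 4 were higher in lung epithelium than in endothelium, where 12.8% of all genes were. Against lung Il33+ MSC, 6 were higher in lung epithelium, where 18.5% of all genes were. Both counts include Slc27a2, at 2.71, 2.74 and 3.3 RPKM in lung epithelium and at most 0.06 in the other populations. It passed the filter on low genes only through the epithelial libraries, so its direction was fixed by the filter.

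Among caveolar genes, Plvap, which forms the diaphragms of endothelial caveolae and fenestrae, was at 63.08, 40.07 and 63.54 RPKM in endothelium and 1.34, 0.43 and 1.16 in Il33+ WAT-MSC, a difference of 4.84 ± 0.36 (SE, adjusted p = 0.000232). Ehd4, an EHD-family ATPase of membrane traffic, differed by 3.48 ± 0.34 (adjusted p = 0.001) and Sdpr (cavin 2) by 2.29 ± 0.25 (adjusted p = 0.00163). Endothelial levels were 42.93 to 85.54 for Ehd4 and 55.46 to 67.16 for Sdpr. The coat gene Ptrf (cavin 1), in contrast, was at 96.33, 119.9 and 129.1 in endothelium and 87.24, 66.82 and 85.52 in Il33+ WAT-MSC and did not pass (0.52 ± 0.26, adjusted p = 0.383). Plvap, Ehd4 and Sdpr passed in the comparison with each of the other 4 populations. As with Cav1, Ptrf was lower in lung epithelium than in lung Il33+ MSC (-1.99 ± 0.22, adjusted p = 8.4e-05).

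Of the regulators, Flt1, the receptor of VEGF-B, was at 14.6, 26.67 and 31.49 RPKM in endothelium and at most 3.25 elsewhere. It was higher by 3.71 ± 0.40 (SE) than in Il33+ WAT-MSC (adjusted p = 0.00146). Aplnr, the apelin receptor, was higher by 3.47 ± 0.52 (adjusted p = 0.0074). Tcf15, a transcription factor that partners Meox2 in capillary endothelium, was higher by 2.68 ± 0.45 (adjusted p = 0.0128). Meox2 itself did not pass against Il33+ WAT-MSC (0.64 ± 0.38, adjusted p = 0.464, limma) or lung Il33+ MSC (-0.18 ± 0.35, adjusted p = 0.831). It passed against Il33- WAT-MSC (3.09 ± 0.47, adjusted p = 0.00522) and lung epithelium (4.10 ± 0.41, adjusted p = 0.000232). Tcf15 was at 3.82, 5.97 and 10.33 in endothelium and at most 1.56 elsewhere. Aplnr and Tcf15 stayed below 1 RPKM in every Il33+ WAT-MSC library, so they passed the filter in that comparison through endothelium alone. Pparg, the nuclear receptor known to drive Fabp4 and Cd36, was low in all populations, at 1.67, 2.51 and 2.63 in endothelium and 0.25, 0.04 and 0.63 in Il33+ WAT-MSC (1.33 ± 0.39, adjusted p = 0.123), and reached 4.66 in a lung epithelial library. Mgll, the monoglyceride lipase, was the called gene of the lipolysis list, at 26.23, 22.9 and 23.56 against 7.62, 3.25 and 4.88 (2.07 ± 0.34, adjusted p = 0.0115). Mgll was lost under 3 of 15 settings and Tcf15 under 4 of 14, with adjusted p up to 0.354 and 0.0824 over the settings tried.

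**Figure D5:**
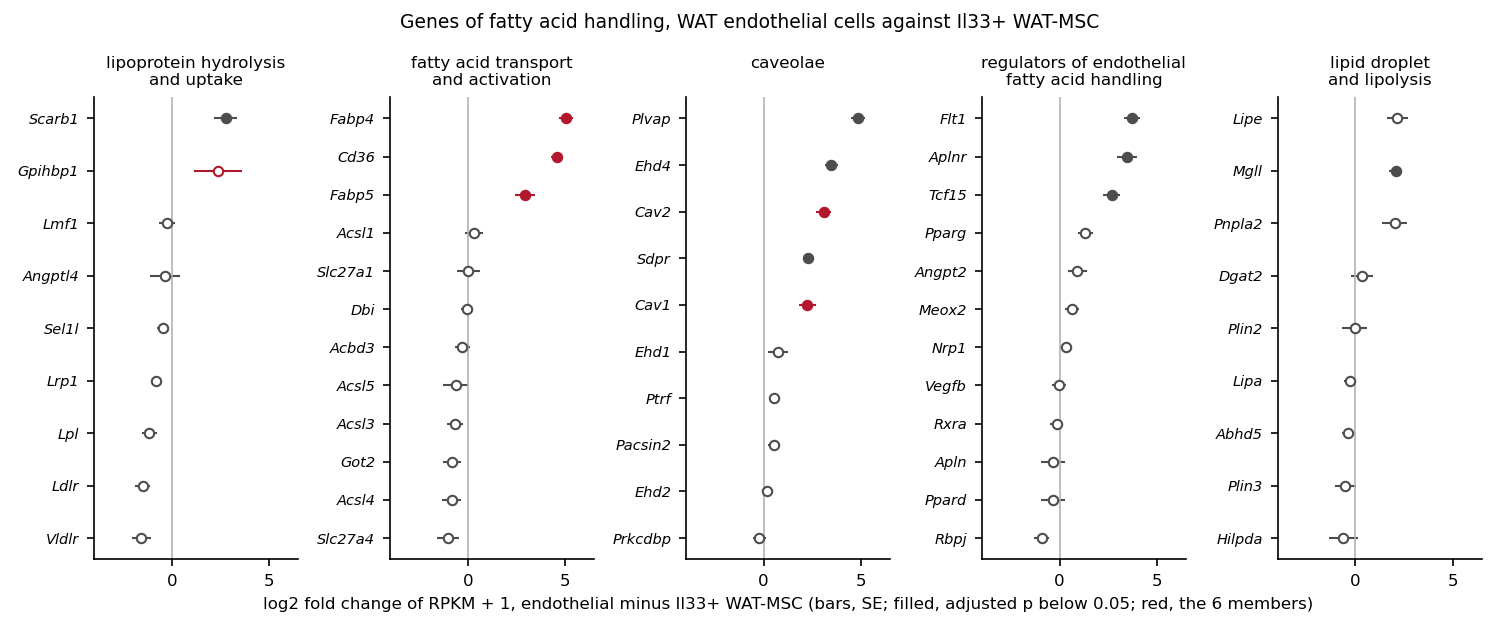
Log2 fold change (log2 of RPKM + 1) of WAT endothelial cells minus Il33+ WAT-MSC for each tested gene of the 5 lists, with bars for the SE. Red marks the 6 genes and filled points passed an adjusted p of 0.05. Members of the transport list other than Cd36, Fabp4 and Fabp5 lie near or below 0, and Plvap at 4.84 leads the caveolar list.

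The genes most like each of the 6 were found by the Pearson correlation of log2(RPKM + 1) over the 15 libraries, among 9981 genes. The libraries of a population share their sort, so r describes the order of 5 populations more than it does 15 points. Cd36 was most like Tspan13 (r = 0.966), a tetraspanin, Pkp4 (0.958), a plakophilin, and Cdh5 (0.950). Cav2 was most like Lrg1 (0.953), Pkp4 (0.946) and Adgrf5 (0.943), an adhesion receptor, and Fabp5 like Tm4sf1 (0.936), Tgtp2 (0.931) and Lrg1 (0.914). For these genes lung epithelium came next to endothelium by mean, as for Adgrf5 at 132 RPKM in endothelium, 55.7 in epithelium and 4.06 to 14.5 in stroma.

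Fabp4 had other neighbours. It was most like Cd300lg (0.947), an endothelial surface receptor, C1qtnf9 (0.946), a secreted C1q-related protein, and Slc28a2 (0.944), a nucleoside transporter. Cd300lg had a mean of 44.2 RPKM in endothelium against at most 2.45 elsewhere. Cav1 was most like Amigo2 (0.938), Tgm2 (0.928), transglutaminase 2, and Neu3 (0.918), a sialidase. Gpihbp1 was most like Orai1 (0.848), a calcium channel subunit, Kdr (0.844), the VEGF receptor, and Gja4 (0.838), a connexin. Among the 6 themselves, Cd36, Fabp5 and Cav2 correlated at 0.893 to 0.920 and Fabp4 with Cav1 at 0.821, whereas Cav1 and Cav2 gave 0.413.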

How the data were processed

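RNA-seq of 15 flow-sorted mouse libraries was used. The authors amplified RNA with the Ovation RNA-seq System V2, sequenced on a HiSeq4000 and aligned to mm10 (TopHat2, Partek Flow). The deposited values are RPKM per RefSeq transcript. The counter, the annotation release, the strand setting and any filter on low transcripts are not given in the sources used here, and 41 transcripts stayed below 1 RPKM in every library.

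RPKM was summed per symbol, and log2(RPKM + 1) was fitted with limma 3.58.1 (lmFit, eBayes with a trend, R 4.3.3) on the 6 libraries of each pair of populations, for genes at 1 RPKM or more in at least 3. P was adjusted by Benjamini-Hochberg over all genes tested, with a threshold of 0.05. The pseudocount understates changes of low genes. Reads per value are not known, so no counting interval is given. The 7 comparisons were tested on simulated data. Of genes changed by 4 on the log2 scale between endothelium and Il33+ WAT-MSC, 89.4% were recovered among the 8665 tested. Of those changed by 2, 43.3% were recovered, and of those changed by 1, 0%. Between endothelium and lung epithelium, 78.8%, 35.8% and 0% were recovered for changes of 4, 2 and 1. P-values measure the spread between replicate sorts.

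Genes outside the 6 were named if called in the first comparison (at most 4 per list and direction) or as partners of a member. Others were the 3 most alike or the first 2 of a marker list. Kdr, Cldn5, Eng, Egfl7, Erg, Lyz2, Cfd, Lipe, Scgb1a1, Slc27a2 and Meox2 were added after their values were seen. Members and lists were chosen with earlier results of these data known. Alternatives were a replicate block, the lane, all libraries in one fit, 2 other scalings, a pseudocount of 0.1, no filter, a filter at 5 RPKM, the most abundant transcript and each library left out. Positions are from GENCODE on GRCm38 (mm10) and start regions from RefSeq GRCm38.p6, and figures were drawn with matplotlib 3.10.9.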

Additional observations from a re-analysis of the deposited data

How the results depend on the processing

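Of 603 values of the 6 genes recomputed in the 7 comparisons, 572 kept their direction and call, 7 lost the call, 14 gained one and 10 changed sign, and those that changed sign had an adjusted p above 0.5. The number of the 6 genes called against Il33+ WAT-MSC was 5, with 3 to 5 when a library was left out and 4 without the filter. For Il33+ WAT-MSC against lung Il33+ MSC it was 0, with 0 to 2 when a library was left out and 1 after quantile normalization. Differences that changed sign when a library was left out ranged from -0.48 to 0.54 for Cd36 and from -1.05 to 0.09 for Fabp4 between Il33+ and Il33- WAT-MSC, from -0.77 to 0.07 for Fabp5, from -1.61 to 0.10 for Gpihbp1 and from -0.69 to 0.24 for Cav1 between the Il33+ stromal cells of WAT and lung, and from -0.64 to 0.20 for Fabp4 between the lung populations. Against Il33+ WAT-MSC, Slc27a1 went to -0.51 with a pseudocount of 0.1 and from -0.40 to 0.74 when a library was left out, and Angptl4 from -0.96 to 0.65. The causes were not tested. Counts over all genes moved more: 338 genes were called between endothelium and Il33+ WAT-MSC, with 131 to 447 when a library was left out and 252 to 805 under other settings, and 133 between Il33+ and Il33- WAT-MSC, with 55 to 122 and 20 to 232.

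Pairing by replicate number was not evident, as the correlations of same-numbered deviations ran from -0.0672 to 0.149 over the 7 comparisons and in none were all 3 above 0.1. Without correlations of differently numbered libraries as a reference, this check cannot show that the samples were unpaired. With the replicate block, 5, 6, 5 and 3 of the 6 genes were called in the 4 endothelial comparisons, in the order used above. In the others, 0, 0 and 4 were called. Against Il33- WAT-MSC, the rise from 5 to 6 went with more calls over all genes than the 496 without the block. Against Il33+ WAT-MSC, neither number rose with the block. The numbers of all genes called with the block in the other comparisons are not given here. Median-ratio scaling moved the median of all genes by 0.15, 0.14, 0.11 and -0.19 in the endothelial comparisons, and endothelium stayed highest by mean for all 6 genes.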
